A study of Mus musculus with 10 samples.

Results

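RBPJ peaks were examined at the genes of the core-binding factor complex, Runx1, Runx2 and Runx3, which encode the DNA-binding alpha subunits, and Cbfb, which encodes their common beta subunit. A peak was assigned to a gene when its centre lay in the gene body or in the regulatory domain of the gene. That domain ran from 5 kb upstream to 1 kb downstream of the 5′ end and was extended on either side to the nearest such basal domain of another protein-coding gene, by at most 1 Mb. By this rule 11 of 11094 peaks belonged to the 4 genes, of 21938 protein-coding genes in all: 6 to Runx1, 4 to Runx2, 1 to Cbfb and 0 to Runx3. The alternative promoters of the Runx genes were considered separately.

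The peaks came from chromatin immunoprecipitation and sequencing (ChIP-seq) of untreated RD1 cells, whose label names them brain pericytes (mural cells of the brain capillaries) of the mouse, grown in Pericyte Medium on collagen I. There were 10 samples, 2 replicates each for RBPJ, H3K4me1, H3K4me3, histone H3 and input, all of RD1 cells and without a genetic or drug comparison. RBPJ replicates 1 and 2 had identical files, used as 1 list, while 8 samples, of the histones and input, were not analysed here. The list gives positions alone, with no height or score, and depth per sample was unknown. There was therefore no replicate error, and intervals below cover counting error only. No cell type marker could be checked, since expression was not measured in these samples.

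RUNX proteins recognise DNA through the Runt domain. CBFβ does not contact DNA itself but increases the affinity and stability of the bound RUNX protein. Runx1 is required for definitive haematopoiesis, Runx2 for osteoblast differentiation, and Runx3 acts in T lymphocytes and sensory neurons. Each Runx gene has a distal promoter, P1, and a proximal promoter, P2, which give proteins with different N-termini. RBPJ is the DNA-binding factor of the Notch pathway: it represses with co-repressors and activates with the Notch intracellular domain. Its core recognition sequence is TGGGAA, and that of RUNX is TGTGGT.

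Sequence in several of the peaks is given here to show where these letters fell. Each is read from GRCm38 on the coding strand of the gene, which reads as its RNA does, 5′ to 3′. Capitals mark TGGGAA and TGTGGT on either strand, so that TTCCCA and ACCACA are the reverse complements. The first pair are whole peaks in Runx1 introns, chr16:92623886-92624148 and chr16:92732159-92732372, both on the minus strand. The third is the centre of an upstream peak, chr16:93006534-93006733.
Runx1 3′ intron peak: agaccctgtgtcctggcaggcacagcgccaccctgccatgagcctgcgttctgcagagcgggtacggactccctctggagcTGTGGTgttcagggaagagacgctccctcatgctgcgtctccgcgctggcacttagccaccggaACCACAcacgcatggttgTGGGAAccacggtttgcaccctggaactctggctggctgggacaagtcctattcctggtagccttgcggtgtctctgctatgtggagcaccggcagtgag
Runx1 intron peak between P1 and P2: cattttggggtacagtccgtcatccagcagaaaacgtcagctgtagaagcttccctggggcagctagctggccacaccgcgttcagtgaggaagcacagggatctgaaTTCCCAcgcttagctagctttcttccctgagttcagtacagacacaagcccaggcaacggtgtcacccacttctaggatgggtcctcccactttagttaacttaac
Runx1 upstream peak, centre: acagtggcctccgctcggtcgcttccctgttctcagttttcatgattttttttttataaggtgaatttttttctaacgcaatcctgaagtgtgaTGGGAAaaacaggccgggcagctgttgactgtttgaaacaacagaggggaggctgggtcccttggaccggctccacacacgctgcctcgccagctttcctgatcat

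Stretches with 2 or 3 TGGGAA matches are shown for 3 Runx2 peaks. They are the cluster in the 3′ peak at chr17:44500229-44500445, the pair in an intron peak at chr17:44667493-44667574 and the pair in the P2 peak at chr17:44736952-44737033, all on the minus strand.
Runx2 3′ peak: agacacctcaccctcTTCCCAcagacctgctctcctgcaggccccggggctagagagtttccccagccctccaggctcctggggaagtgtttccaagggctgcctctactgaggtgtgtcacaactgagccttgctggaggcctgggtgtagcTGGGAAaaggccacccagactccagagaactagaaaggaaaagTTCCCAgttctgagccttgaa
Runx2 intron peak: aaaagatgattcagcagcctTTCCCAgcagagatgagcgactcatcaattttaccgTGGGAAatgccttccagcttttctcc
Runx2 P2 peak: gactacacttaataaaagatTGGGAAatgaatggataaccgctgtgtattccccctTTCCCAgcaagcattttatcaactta

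Promoter sequence is shown for a Runx promoter under a peak, for the Cbfb promoter, which also lies under a peak, and for a Runx promoter without one. Each is the 200 bases before the annotated start, at chr16:92697329-92697528 (minus strand), chr8:105170474-105170673 (plus strand) and chr4:135120452-135120651 (plus strand). Capitals here also mark the GC box GGGCGG.
Runx1 P2: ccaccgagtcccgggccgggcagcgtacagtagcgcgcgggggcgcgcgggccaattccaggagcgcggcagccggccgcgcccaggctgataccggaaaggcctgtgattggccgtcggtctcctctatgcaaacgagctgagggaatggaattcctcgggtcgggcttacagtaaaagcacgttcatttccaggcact
Cbfb: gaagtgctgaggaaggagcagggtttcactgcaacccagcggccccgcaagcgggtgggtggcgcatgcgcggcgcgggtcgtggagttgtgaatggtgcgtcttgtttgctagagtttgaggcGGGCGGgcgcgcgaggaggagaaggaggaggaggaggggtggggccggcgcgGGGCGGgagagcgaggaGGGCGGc
Runx3 P1: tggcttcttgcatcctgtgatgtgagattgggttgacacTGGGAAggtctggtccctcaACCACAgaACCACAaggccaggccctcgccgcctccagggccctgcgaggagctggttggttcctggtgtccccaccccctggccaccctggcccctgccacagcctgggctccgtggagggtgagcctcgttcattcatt

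Peaks were present at P2 of Runx1, at P2 of Runx2 and at the Cbfb promoter, and at none of the 3 P1 promoters. A promoter was a group of protein-coding starts joined at gaps of up to 1 kb, and it counted as bound when a peak centre lay within 1 kb of any of its starts. P1 was the group at the 5′ end of the gene. P2 was the inner group whose coding exons begin with the N-terminus of the proximal isoform. Of the 8 promoters of the 4 genes, 3 had a peak, beside 19.2% of all 32526 promoters. By gene, 3 of 4 had a promoter peak, beside 27.4% of all genes.

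At Runx1, P1 (chr16, minus strand, first start 92826149) had no peak nearer than 78117 bp. P2, which lies 128821 bp further into the gene at 92697328, had the centre of a 2296 bp peak 426 bp before its start (chr16:92696607-92698902). A further group of starts with the same reading frame, from 92696125 to 92695495, was 1629 bp from that centre. The peak spanned the P2 start itself, and its centre lay in an intron of the longer P1 transcripts.

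At Runx2, P1 (chr17, minus strand) has 4 starts from 44814797 to 44814226, and the last of them was 78022 bp from the nearest peak centre. P2 lay 78149 bp beyond the 5′ end, with 5 starts from 44736648 to 44734693, and a 2485 bp peak covered most of that stretch (chr17:44734962-44737446). Its centre was 444 bp from the nearest protein-coding start and fell in an untranslated region. The antisense transcript Runx2os1 also overlapped it, so the peak cannot be placed on either gene from its position.

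At Runx3, P1 (chr4, plus strand, 135120652) and P2 (135152496) are 31844 bp apart, the closest pair in the family. P1 was 151747 bp from the nearest peak centre and P2 was 119903 bp from the same peak. Cbfb has a single promoter with 4 starts between 105170674 and 105170945 (chr8, plus strand), and the centre of its 1491 bp peak, at chr8:105170107-105171597, lay 93 bp from the nearest of them. That peak overlapped the long non-coding gene Gm3830 as well.

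**Figure D1:**
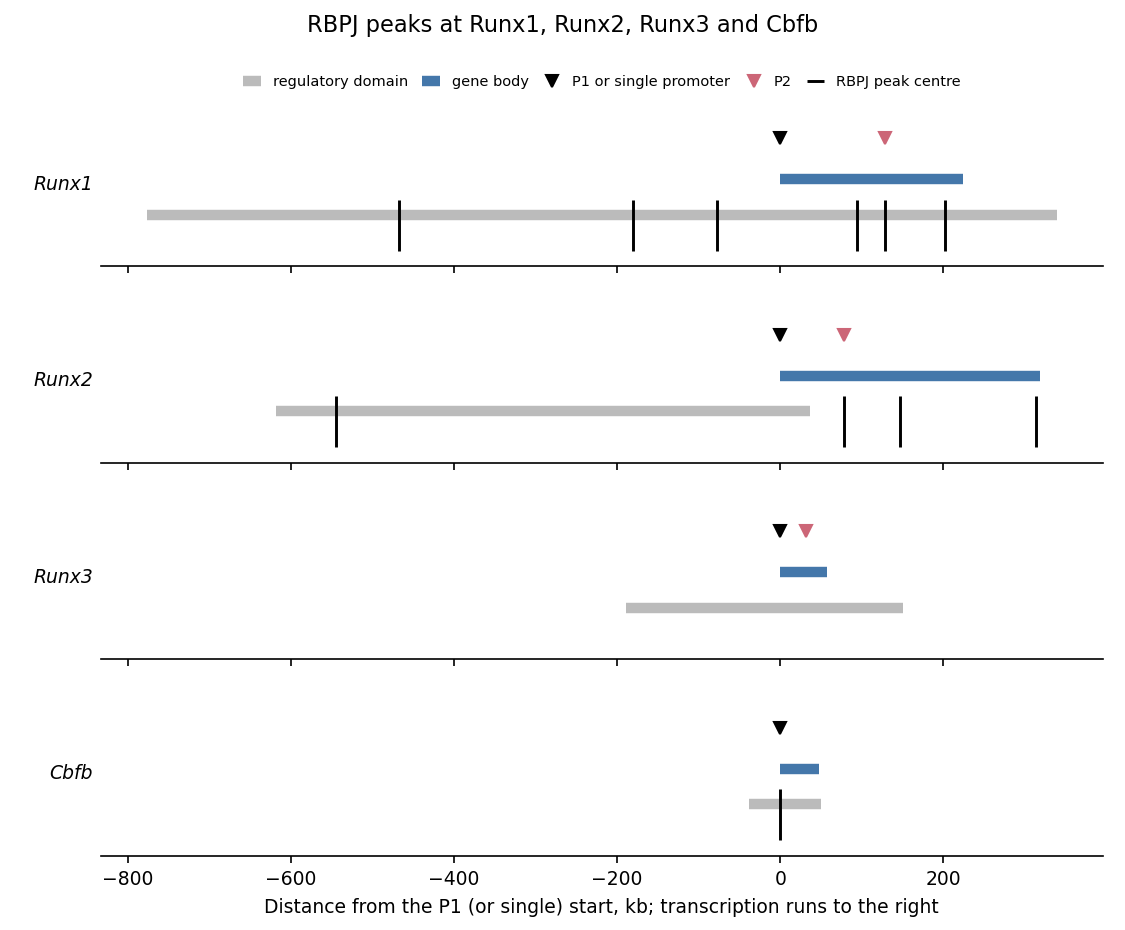
Positions of the RBPJ peak centres (black ticks) relative to the P1 or single start of each gene, in kb with transcription to the right, with gene bodies in blue, regulatory domains in grey and promoters as triangles. Ticks stand at P2 of Runx1 and Runx2 and at the Cbfb start, none stands at a P1, and Runx3 has none.

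A peak at an inner promoter without one at the 5′ promoter was uncommon among all genes. Of 2661 genes with an inner promoter at least 20 kb from the 5′ one, 5.56% had a peak at the inner promoter alone, the pattern of Runx1 and Runx2. A peak at the 5′ promoter alone was seen in 31.6%, at both in 2.89% and at neither, as at Runx3, in 60.0%. Runx1 and Runx2 thus shared a pattern found in 148 genes.

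The promoters differed in CpG content, the ratio of observed to expected CpG dinucleotides in the 300 bp around a start (the start with the highest ratio where a promoter had several). The ratio was 0.334 at P1 and 1.01 at P2 of Runx1. It was 0.328 and 0.953 at P1 and P2 of Runx2, and 0.262 and 0.973 at P1 and P2 of Runx3. Cbfb had 1.09, higher than 96.7% of all promoters. The further group of starts beyond Runx1 P2 had 0.827 and no peak centre within 1 kb, although the edge of the P2 peak was nearer than that. All 3 P1 promoters were therefore CpG-poor and all 3 P2 promoters CpG-rich, with Runx3 like its paralogues.

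Across the genome a peak was found at 1.68% of promoters with a ratio below 0.25, 4.93% from 0.25 to 0.5, 26.2% from 0.5 to 0.75 and 47.1% above. Among the 248 genes with a 5′ promoter below 0.5 and an inner promoter at 0.5 or more, 27.4% had a peak at the inner promoter alone and 1.21% at the 5′ one alone. In this class the pattern of Runx1 and Runx2 was less rare than among all genes with separate promoters. The pattern of Runx3, no peak at either, was the most frequent at 70.2%.

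**Figure D2:**
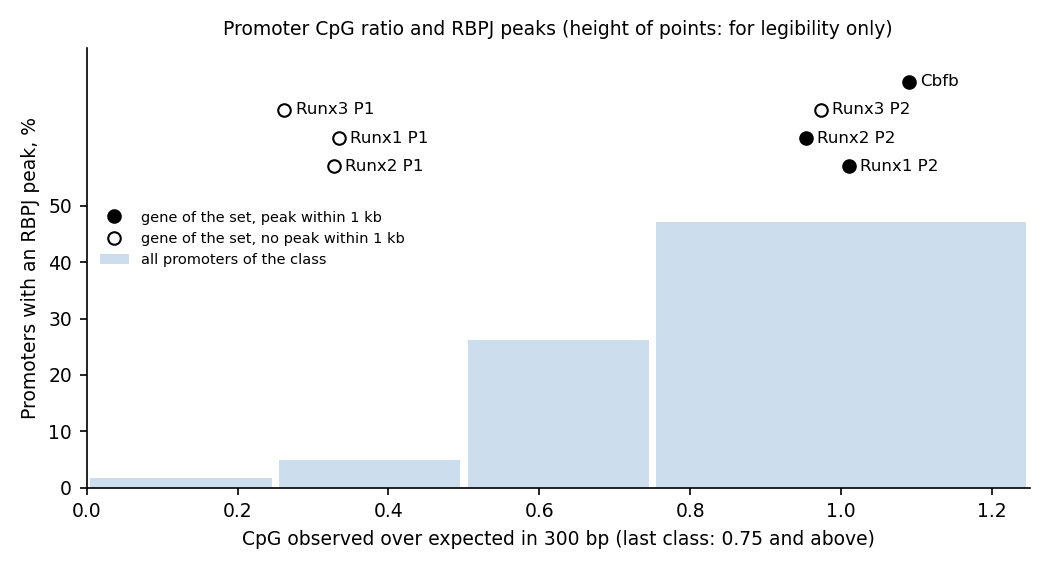
Bars give the percentage of all promoters with an RBPJ peak within 1 kb in 4 classes of CpG ratio, and points give the ratio of the P1, P2 and Cbfb promoters, filled where one had a peak; the height of the points carries no value. The 3 P1 promoters lie between 0.262 and 0.334 and are unfilled, while at 0.953 and above only Runx3 P2 is unfilled.

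The P1 promoters had a sequence in common. A tandem RUNX site, ACCACA followed by any 2 bases and another ACCACA, searched on both strands, was found in 7 of 32851 RefSeq promoters of 300 bases, or 0.0213%. P1 of Runx1, Runx2 and Runx3 were 3 of these 7. The tandem pattern was not among the motifs planned at the outset, so these numbers are a description and not a test. The RefSeq table (GRCm38) held 6 promoters of the 4 genes: P1 and P2 of Runx1 and Runx3, P1 of Runx2 and the Cbfb promoter. The sites lie at chr16:92826029-92826050 and chr17:44814587-44814608 on the minus strand and chr4:135120507-135120528 on the plus strand, with RUNX letters in capitals.
Runx1 P1: aacaACCACAgaACCACAagtt
Runx2 P1: aacaACCACAgaACCACAagtg
Runx3 P1: ctcaACCACAgaACCACAaggc

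The 22 bases were identical at 21 positions between Runx1 and Runx2 and at 18 between Runx3 and either of them. Relative to the RefSeq start the site lay 35 bp downstream in Runx1 and 30 bp downstream in Runx2, but 128 bp upstream in Runx3. At least 1 TGTGGT occurred in 16.8% of all promoters and at least 1 TGGGAA in 25.6%. Of the members' promoters in the table, that of Runx3 P1 alone held TGGGAA, 152 bp before the start, and no peak lay there. The Runx1 P2 and Cbfb promoters, both under a peak, held neither.

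Runx1 had the most peaks of the family in its domain, with 6 (95% Poisson interval 2.2 to 13.1). A peak in the domain was found for 45.7% of all genes, and at least 6 for 1.27%. Its domain is long, however, at 1.12 Mb (chr16:92486736-93603063), and the peak density of chromosome 16 alone would give 5.24 peaks over this length. The count was thus close to that of the chromosome at large. It was 3 among peaks of at least 500 bp and 3 with domains bounded by genes of every biotype. The gene body, 225 kb at chr16:92601466-92826149 (ENSMUSG00000022952.17), held 3 of the 6 (interval 0.619 to 8.77), where the density gives 1.05. At least 1 peak in the body was found for 25.2% of genes and at least 3 for 1.39%. The body of Runx2 also held 3. Among peaks of at least 500 bp, the body of Runx1 held 1 and that of Runx2 held 3.

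Of the intragenic Runx1 peaks, the one at P2 was wide and the others narrow. A 214 bp peak (chr16:92732159-92732372) lay in the intron between the promoters, 93.9 kb into the gene and 34.9 kb before P2, and 5.23% of all peaks were narrower. A 263 bp peak (chr16:92623886-92624148) lay in an intron towards the 3′ end, 73.3 kb beyond P2. Outside the gene, a 946 bp peak lay 78.1 kb upstream of P1 (chr16:92903794-92904739), a 642 bp peak 180485 bp upstream (chr16:93006314-93006955) and a 337 bp peak 467 kb upstream (chr16:93293066-93293402). The last was nearer to the start of Setd4, which bounds the domain on that side, than to that of Runx1. The intragenic peaks fell also in the domain of Clic6, the neighbour downstream, and the upstream ones in that of Setd4.

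Runx2 had 3 peaks in its gene body (interval 0.619 to 8.77), which spans 319 kb at chr17:44495987-44814797 (ENSMUSG00000039153.16), against 1.88 given by the density of chromosome 17. Its regulatory domain held only 1 (interval 0.0253 to 5.57), against 3.85. The 3 intragenic peaks were outside the domain because the start of Supt3, on the opposite strand within Runx2 and 37.6 kb from P1, ends the domain at 44778152. They fell in the domains of Supt3 and Clic5 instead. The domain count fell to 0 with the basal domain alone, with an extension of at most 100 kb and with domains bounded by genes of every biotype. With the domain drawn from P2 in place of P1, a choice made after the data were seen, Runx2 had 4 peaks: the 3 intragenic ones and a 222 bp peak beyond the gene at chr17:44256698-44256919.

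The intragenic Runx2 peaks were the one at P2, a 526 bp peak in an intron 69.3 kb beyond P2 (chr17:44667103-44667628) and a 591 bp peak at the 3′ end, 314 kb from P1 (chr17:44500222-44500812). The last lies beyond the protein-coding transcripts, and their span alone held 2. The peak in the domain was 1323 bp wide and lay 544 kb upstream of P1 (chr17:45358613-45359935). It was 74463 bp from the start of Cdc5l, whose domain also held it. No peak lay between P1 and P2 of Runx2 beyond 1 kb of either, whereas Runx1 had 1 there.

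Runx3 had no peak in its body (57.3 kb, chr4:135120652-135177990, ENSMUSG00000070691.10) or in its domain (0.34 Mb, chr4:134931898-135271814). A count of 0 allows up to 3.69 peaks, the upper limit of the interval. The density of chromosome 4 gives 0.343 for the domain and 0.0579 for the body, and the denser stretch within 2 Mb of P1 gives 1.36 and 0.229. All of these lie inside the interval, so a difference was not detectable from either density. The nearest peak, chr4:135271669-135273129, lay at the promoter of Clic4, an intracellular channel-family gene on the opposite strand, and its centre was 585 bp past the end of the Runx3 domain. Counted by any overlap, that peak would give Runx3 a count of 1. In the other direction the next peak was 636496 bp from P1. Runx3 thus lay in a gap of 786 kb, and 6.28% of all gaps between neighbouring peaks were at least as long.

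Chromosome 4 as a whole had few peaks. It carried 158, or 1.01 per Mb, beside 4.07 in the genome, 4.69 on chromosome 16, 5.88 on chromosome 17 and 4.84 on chromosome 8. Among the autosomes chromosome 7 alone was as sparse, at 1.0 per Mb, and the next was chromosome 12 at 3.18. On chromosome 4 a peak in the domain was found for 14.3% of 1327 genes, and 33.8% of its 157 gaps were at least as long as that around Runx3. Coverage was uneven, and within 2 Mb of Runx3 P1 it held 16 peaks, or 4.0 per Mb, close to the genome. Past 130 Mb, however, a peak in the domain was found for 16.1% of 440 genes, beside 13.4% of the other genes of the chromosome. Copy number was not measured. The part of the sparse chromosome in the count of 0 at Runx3 was not tested.

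**Figure D3:**
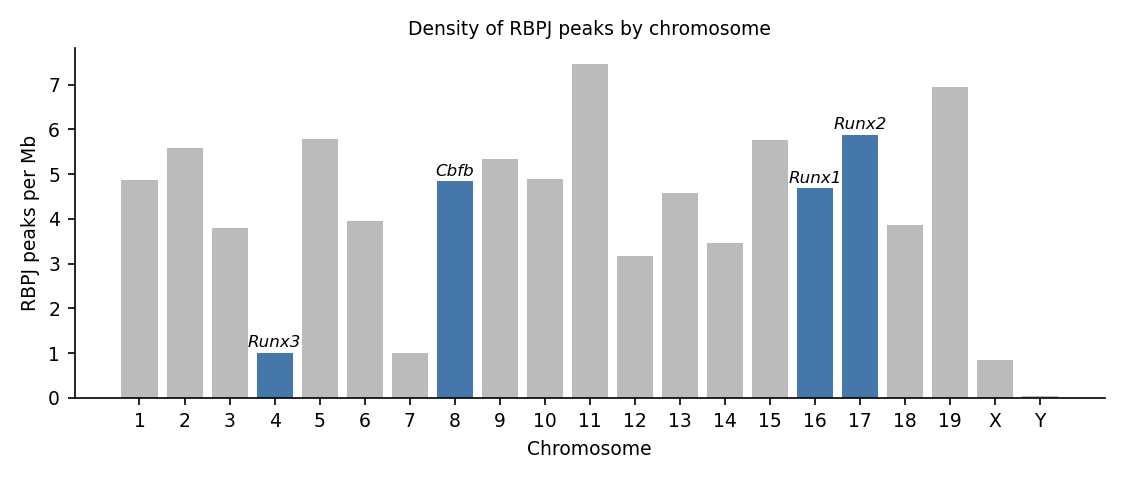
RBPJ peaks per Mb of each chromosome, with those that carry a Runx gene or Cbfb in blue. Chromosome 4, with Runx3, stands at 1.01, and those of the other 3 genes stand between 4.69 and 5.88.

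Cbfb (ENSMUSG00000031885.14, chr8:105170674-105217989) had 1 peak, at its promoter, in both body and domain (interval 0.0253 to 5.57). Its domain is the shortest of the 4 at 87.3 kb (chr8:105132800-105220145), over which the density gives 0.423. The neighbours Ces4a and D230025D16Rik bound it. Ces4a had no peak in its domain, and D230025D16Rik had a promoter peak of its own.

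**Figure D4:**
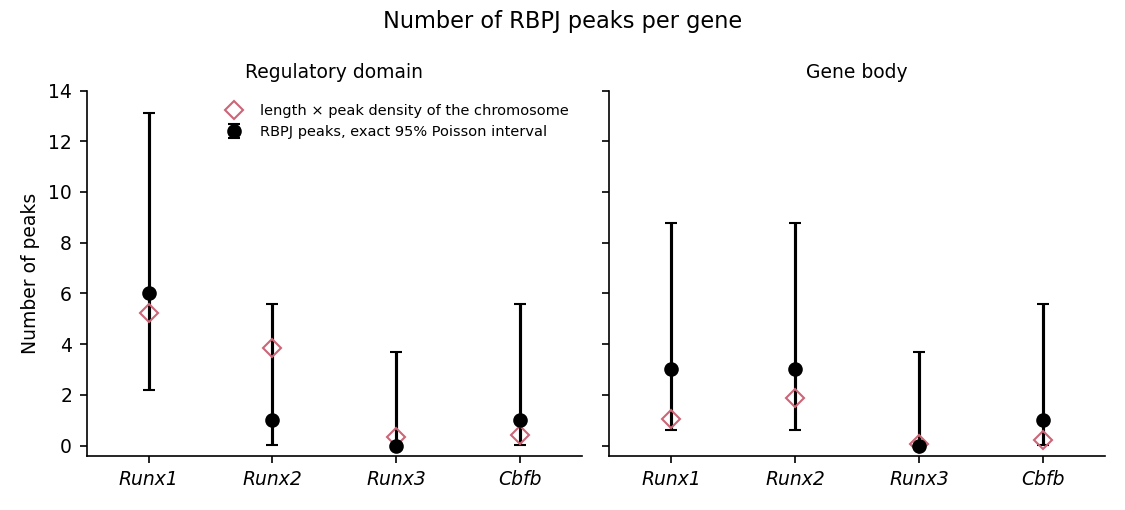
Number of RBPJ peaks in the regulatory domain (left) and gene body (right) of each gene, with exact 95% Poisson intervals, beside the number that the peak density of its chromosome gives over the same length (diamonds). Every diamond lies inside its interval, among them 5.24 beside 6 for the Runx1 domain and 3.85 beside 1 for that of Runx2.

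In width the 11 peaks had a median of 642 bp (range 214 to 2485 bp), beside 690 bp for all peaks. The median was 829 bp for all peaks within 1 kb of a start and 523 bp for the rest. The 3 promoter peaks, of 1491, 2296 and 2485 bp, were wider than 76.4%, 88.5% and 90.7% of all peaks. Among peaks within 1 kb of a start these shares were 77.2%, 90.9% and 93.0%. They were also rich in CpG, with 155, 154 and 172 CpG dinucleotides, whereas the other 8 held between 6 and 22.

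In 4 of the 11 peaks (36.4%) TGGGAA was present within the central 200 bp, beside 25.8% of all peaks, 35.3% of those farther than 1 kb from a start and 18.2% of windows 5 kb to either side of all peaks. All 4 were among the 8 distal peaks. In the upstream Runx1 peak 180485 bp from P1 the match lay 3 bp from the centre, and so did that in the peak between the Runx1 promoters. In the 3′ intron peak of Runx1 it lay 34 bp from the centre, and in the 3′ peak of Runx2 89 bp. Over their whole length 9 of 11 peaks held TGGGAA (81.8%, beside 64.9% of all and 71.6% of distal peaks), with 21 matches in total. The exceptions were the Cbfb peak and the Runx1 peak farthest upstream.

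At the P2 promoters the TGGGAA matches lay towards the edges of the wide peaks, not at the centre. Few promoter peaks had a central match: TGGGAA was in the central 200 bp of 16.2% of all peaks within 1 kb of a start. The 3 in the Runx1 P2 peak were 1093 to 1117 bp from its centre, and the 3 in the Runx2 P2 peak were 771 to 1172 bp from it. The interval can join several calls, so its centre need not mark the bound site. The pairs shown above for the Runx2 intron and P2 peaks have the same spacing, 36 bp from start to start on opposite strands, a feature noticed after the sequences were seen. In the intron pair the matches point away from each other and in the P2 pair towards each other. A closer pair, 24 bp apart, was in the Runx1 P2 peak.

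The RUNX sequence TGTGGT lay within the central 200 bp of 2 members (18.2%), beside 12.1% of all peaks, 17.5% of distal peaks and 15.7% of windows 5 kb to either side of all peaks. It was thus no more frequent in peak centres at large than beside them. They were the 3′ intron peak of Runx1, with matches 16 and 48 bp from the centre, and the intron peak of Runx2, with a match 23 bp from it. Over whole peaks it was found in 6 of 11 (54.5%), beside 40.0% of all. The Runx2 P2 peak held 3 matches, all near the same edge as its TGGGAA matches. The 3′ intron peak of Runx1 was the only member with both sequences in its central 200 bp, beside 3.7% of all peaks.

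**Figure D5:**
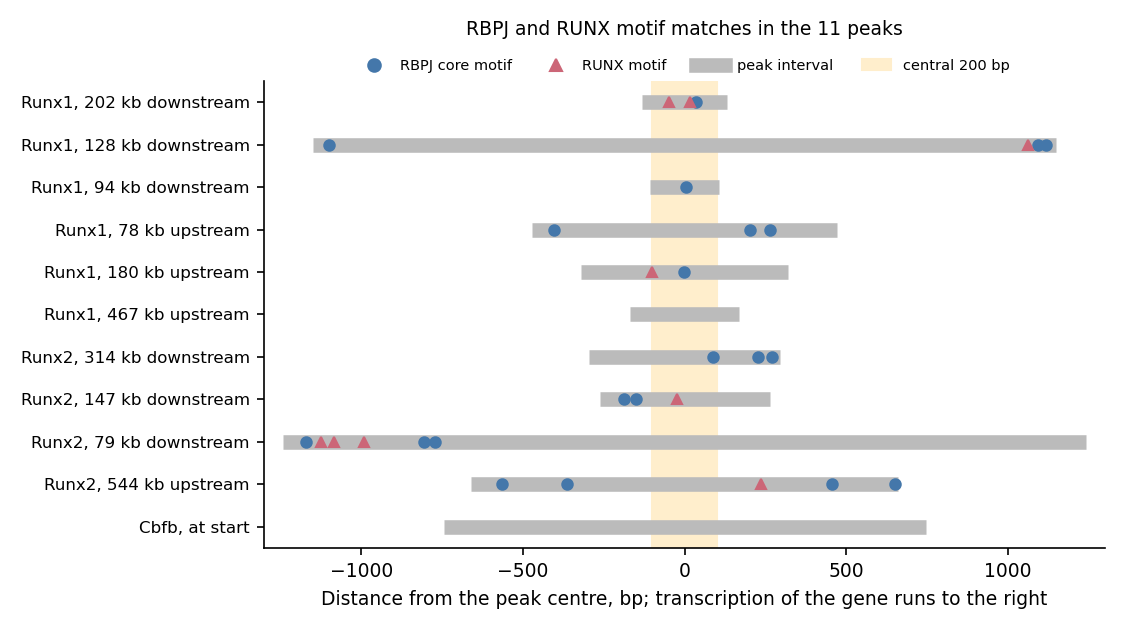
Matches of the RBPJ core motif (circles) and of the RUNX motif (triangles) in each of the 11 peaks, in bp from the peak centre with transcription to the right and the peak interval in grey. Circles fall in the central 200 bp of 4 distal peaks, and at the P2 promoters of Runx1 and Runx2 they fall near the edges of wide intervals.

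Genes that work with RUNX proteins were counted in the same way. Of 35 partner and cofactor genes, 24 had a peak in the domain (68.6%, beside 45.7% of all genes) and 17 at a promoter (48.6%, beside 27.4%). Their median domain was 192 kb, beside 89.9 kb for all genes, and its part in the count was not tested. Tle3, a Groucho-family co-repressor recruited by RUNX and by Notch effectors, had the most with 14 peaks, over a long domain of 1120 kb. Smad3, a mediator of TGFβ signalling that cooperates with RUNX proteins, had 9 over 417 kb.

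Promoter peaks were present at the Groucho-family genes Tle1, Tle3 and Tle4, at Ncor1, Sin3a, Sin3b and Cbfa2t2, which encode co-repressors, and at the acetyltransferase genes Ep300 and Kat6a. They were also present at Yap1 and Wwtr1, the effectors of the Hippo pathway, at Smad3, at Ets1, whose product binds DNA together with RUNX1, at the cell-cycle kinase gene Cdk6, and at Hipk2 and Smurf2, whose products modify other proteins. Peaks in the domain were rare for genes of chromosomes 4, 7 and X, at 14.3% of 1327, 10.3% of 2023 and 18.8% of 948 genes, which lowers the share of all genes. The partner and cofactor list had 4, 1 and 1 genes on these chromosomes, and the target list below had 1, 2 and 0. The part of this in the shares was not tested.

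Of 24 genes known as RUNX targets, 15 had a peak in the domain (62.5%, beside 45.7% of all genes) and 6 at a promoter (beside 27.4%). Their median domain was 129 kb. In the basal domain alone 4 had a peak (16.7%), below the 27.1% of all genes, so the higher share did not hold without the extension. For the partner and cofactor genes the basal share was 42.9%. Hes1, a Notch target and transcriptional repressor, had the most with 10 peaks over a domain of 686 kb. A peak was centred in its gene body, although none was centred within 1 kb of its start. Bcl2l11, which promotes apoptosis, Sox9, which directs cartilage formation, and Tgfbr2, a TGFβ receptor, had 6 each and a promoter peak. Their domains were long, at 746, 1830 and 1260 kb. Chromosome 11, with Sox9, had 7.45 peaks per Mb, and chromosome 9, with Tgfbr2, had 5.33. The part of domain length in these counts was not tested. The remaining promoter peaks were at Cdkn1a, an inhibitor of the cell cycle, Zbtb7b, a T-cell lineage factor, and Mpo, a neutrophil enzyme.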

How the data were processed

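Each deposited peak is a chromosome with its start and end position in bp on GRCm38; no score, signal or summit is given. According to the study's methods, the authors aligned reads with bowtie, discarding those with more than 3 matching positions, and removed duplicates with Picard and SAMtools. MACS2 and PeakRanger were run by the authors on each replicate. Calls less than 2 kb apart were joined, a region had to be covered by 3 or more of the calls from the combinations of caller and replicate, and blacklisted regions were dropped. Merging widens intervals, and reads with many matching positions are lost. Only RBPJ replicates 1 and 2 were used, grouped by their titles. The list cannot show replicate spread.

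Starts were read as counted from 1. Genes and starts were from GENCODE M21, genome sequence from GRCm38.p6 and promoter sequences from RefSeq; 0 peaks ran past a chromosome end. Intervals on counts are exact 95% Poisson intervals, and no test was run, since there was 1 list. The functions for domains, promoters and motifs were tested on simulated data. Members and gene lists were chosen with earlier results of these data known. Genes named were the 4 members with all their peaks, genes that share or bound their domains, and, of each list, those with a promoter peak and the 3 with the most peaks, ties included, except genes that are not reported here. Aes was used for Tle5. Alternatives covered the domain, the gene set, the promoter set, peak width, the window and the start coordinate. Software was pysam 0.24.0, pandas 2.3.3, numpy 2.4.6, scipy 1.17.1 and matplotlib 3.10.9 under Python 3.11.15.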

Additional observations from a re-analysis of the deposited data

How the results depend on the processing

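Of 75 alternative values for 16 results, apart from those that leave out a replicate, 49 stayed within the limits set and 26 moved. The limits were wider for counts than for distances. A change from 3 to 2 peaks in the Runx2 body stayed within them, whereas one from 119903 to 119173 bp for Runx3 moved. With the basal domain alone, Runx1 and Runx2 had 0 peaks, and 15 partner genes (42.9%) and 4 target genes (16.7%) had one, beside 27.1% of all genes, so the targets fell from above to below the share of all genes. With an extension of at most 100 kb, Runx1 had 2 and Runx2 had 0. With domains bounded by genes of every biotype, Runx1 had 3 and Runx2 had 0. Drawing the domain of Runx2 from P2, chosen after seeing the data, gave 4. Counting any overlap gave 1 for Runx3, the peak at Clic4. Peaks of at least 500 bp left 3 in the domain and 1 in the body of Runx1, and 2 peaks with TGGGAA and 1 with TGTGGT in the centre. Over whole peaks these numbers were 9 and 6. Taken to the nearest peak edge, the distance to a promoter was 0 bp for Runx1, Runx2 and Cbfb and 119173 bp for Runx3. From the 5′ end alone it was 78117 bp for Runx1, 78593 bp for Runx2, 151747 bp for Runx3 and 178 bp for Cbfb. With the starts of all transcripts it was 28 bp for Runx2 and 117963 bp for Runx3.

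Leaving out a replicate changed nothing, since the files were identical, and this is no sign of stability. No paired analysis was possible because the result comes from no test and the replicates share 1 list. Sites just under the calling threshold, or in sequence whose reads match more than 3 positions, cannot be seen.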

Other observations

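Other short motifs in the 11 peaks are given as counts, with no test. The AP-1 sequence TGANTCA was in the central 200 bp of none of the 11, beside 10.4% of all peaks and 17.7% of distal peaks. Since 8 of the 11 are distal, shares of distal peaks are given too. Over their whole length 6 held it (54.5%, beside 30.7% of all and 44.4% of distal peaks). The SMAD sequence CAGACA was in 8 over their whole length (72.7%, beside 45.9% of all and 51.2% of distal peaks). The GC box was in 3 (27.3%, beside 57.1% of all, 26.8% of distal and 87.9% of proximal peaks), of which Cbfb had 14 matches and the Runx2 P2 peak 5. The ETS sequence CCGGAAG was in none (0 of 11, beside 19.3% of all and 7.51% of distal peaks).

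Chromosome 4 was unevenly covered. Of its 158 peaks, 46.2% lay past 130 Mb, in the part that holds Runx3, at 2.75 per Mb, against 0.654 per Mb before it.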
